A study of Mus musculus with 6 samples.

Results

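The tumour suppressor p53 and 31 genes named as its targets or regulators were followed in MEFs, fibroblasts cultured from mouse embryos. The 32 genes were taken by name from a table of 26532 genes measured by RNA sequencing, and all 32 were found there. In 3 libraries the cells had been given a recombinant adenovirus carrying ORAI2, a pore subunit of store-operated calcium channels, and their genotype label reads ORAI2 Overexpression. The other 3 libraries are the control, with an adenovirus for green fluorescent protein (GFP) and the genotype label WT. Both groups share the label osteogenic differentiation as treatment and mesenchymal stem cells as cell type. The labels do not state the promoter that drives ORAI2, the time after infection, any addition of BMP9, or how many cultures lie behind each group. The p-values therefore measure the spread between these libraries, which may be technical.

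In mouse cells p53, encoded by Trp53, is a transcription factor that accumulates after DNA damage and other stress. It binds a response element made of a pair of similar half-sites and switches on genes that halt the cell cycle, repair DNA or kill the cell. Among its targets is Mdm2, whose product marks p53 for destruction, so that the pathway restrains itself. In fibroblasts the protein ARF, made from Cdkn2a, holds MDM2 back and is a main barrier to long-term growth in culture.

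The response element was looked for in the DNA around the annotated starts of the members, since all members are named as part of one regulon. RefSeq promoter windows of assembly GRCm38.p6, from 250 bases before to 50 bases after each start, were at hand for 24 of the 32 genes. The p53 response element, a 20-base pattern that is its own reverse complement, was searched with no gap between its half-sites and at most 2 mismatches. No mismatch was allowed at the fixed C and G inside each half-site. It was found at 4 of the 24 genes, in 4 of their 33 windows (12.1%) and in 0.33% of all 32851 windows. Each of the 4 matches had 1 mismatch. The 4 matched stretches follow on the strand of the gene, with the element in capitals; for 3 genes the 250 bases before the start are shown with it, because they carry the match in its context.
Cdkn1a, chr17:29090729-29090978, plus strand: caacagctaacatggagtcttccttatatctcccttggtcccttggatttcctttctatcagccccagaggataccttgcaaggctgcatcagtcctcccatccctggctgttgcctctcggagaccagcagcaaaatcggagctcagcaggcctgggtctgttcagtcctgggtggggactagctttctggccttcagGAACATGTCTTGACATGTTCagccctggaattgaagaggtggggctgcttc
Ccng1, chr11:40755287-40755536, minus strand: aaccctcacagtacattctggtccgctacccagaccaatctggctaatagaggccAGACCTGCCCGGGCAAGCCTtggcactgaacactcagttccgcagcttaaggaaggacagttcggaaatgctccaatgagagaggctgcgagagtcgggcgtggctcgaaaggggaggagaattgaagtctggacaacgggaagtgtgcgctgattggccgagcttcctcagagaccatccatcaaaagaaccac
Rps27l, chr9:66946163-66946412, plus strand: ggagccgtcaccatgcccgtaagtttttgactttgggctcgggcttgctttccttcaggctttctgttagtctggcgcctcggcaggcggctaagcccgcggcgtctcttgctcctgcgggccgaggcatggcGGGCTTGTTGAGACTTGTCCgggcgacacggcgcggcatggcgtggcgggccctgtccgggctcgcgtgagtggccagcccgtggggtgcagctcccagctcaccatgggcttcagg
Gtse1, chr15:85859945-85859964, plus strand: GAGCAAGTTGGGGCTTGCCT
The element began 51 bases before the upstream annotated start of Cdkn1a, 195 before that of Ccng1, 117 before one of the annotated starts of Rps27l, and 1 base before one of those of Gtse1. In Rps27l and Gtse1 it also lay downstream of another annotated start of the same gene. An exact half-site was present at 11 of the 24 genes, in 12 of their 33 windows (36.4%) and in 8.4% of all windows. The members were chosen as named targets or regulators of p53, so their shares beside all windows are descriptive only. A match describes letters only, and elements farther from the starts were not searched.

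Total counts per library lay between 18526884 and 18844436. Orai2 was at 3656, 2831 and 2441 CPM (each library's counts set to a common total, with TMM factors) in the ORAI2 libraries, against 53.4, 48.9 and 48.7 CPM in the GFP libraries, as the labels say. Of 12 mesenchymal markers, Thy1 had at most 3 counts in a library in spite of the cell label, while Fn1 had at least 92328, Vim 6749 and Col1a1 8661. Fap, Lum and Col1a2 were also low, with at most 10, 46 and 276 counts in a library. Of the 10 mesenchymal markers tested, 9 were lower and 0 higher in the ORAI2 libraries by edgeR, DESeq2 giving 8 and 0, and 0 higher also at an unadjusted p of 0.05. Macrophage markers summed to between 26.7 and 35.9 CPM in the ORAI2 libraries and between 51.9 and 55.6 CPM in the GFP libraries, over 6 of 7 markers, with the defining Ptprc at 2 counts or fewer. Cd14 and Mpeg1 carried most of this sum, while Csf1r and Lyz2 had at most 4 and 8 counts in a library. Endothelial markers summed to between 16.3 and 17.5 CPM in the ORAI2 libraries and between 6.42 and 8.88 CPM in the GFP libraries, over 6 of 7 markers. Kdr and Vwf carried that sum, while Pecam1, Cdh5 and Tek had at most 7 counts in a library and Emcn was at 0. Epithelial markers summed to between 1.89 and 3.18 CPM in the ORAI2 libraries and between 0.902 and 1.13 CPM in the GFP libraries, over 6 of 6 markers. Grhl2 alone carried the higher sum, with 52, 50 and 30 counts in the ORAI2 libraries and 9, 13 and 6 in the GFP libraries. The defining Epcam was at 0, and Cdh1 and Esrp1 had at most 4 counts in an ORAI2 library and at most 9 in a GFP library. The part of such cells in the results below was not tested.

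Of the 32 genes, 31 had enough counts to be tested, and 10 rose, 3 fell and 18 did not pass an adjusted p of 0.05 in the edgeR quasi-likelihood test. Over all 13764 genes tested, 42.9% were called, 20.8% as higher and 22.1% as lower in the ORAI2 libraries. Of the 31 tested members, 41.9% were called, near that background, with 32.3% higher and 9.68% lower. Their median log2 fold change was 0.03, against 0.00 for all genes, and the median size of change without sign was 0.17 and 0.18 on the log2 scale. The groups did not overlap in 15 members (48.4%), 12 of them with every ORAI2 library above, against 52.8% and 26.2% of all genes. Changes of 1.5-fold or more were called for 2 members, Plk3 and Fas, against 8.89% of all genes. By role, 3 of 4 arrest and cell cycle genes rose (median log2 fold change 0.33), 2 of 5 among p53 and its feedback regulators (0.11), 4 of 12 apoptosis genes (-0.01), 1 of 5 repair genes (-0.06) and 0 of 5 others (-0.05). In these 5 others the count of 0 was the same with DESeq2 and limma-voom and at an unadjusted p of 0.05. Differences between the roles were not tested. Since RNA was measured in bulk, fewer cells of a type and less RNA per cell cannot be told apart. The member left untested was Perp, an apoptosis effector of epithelial junctions, with between 1 and 3 counts in every library.

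**Figure D1:**
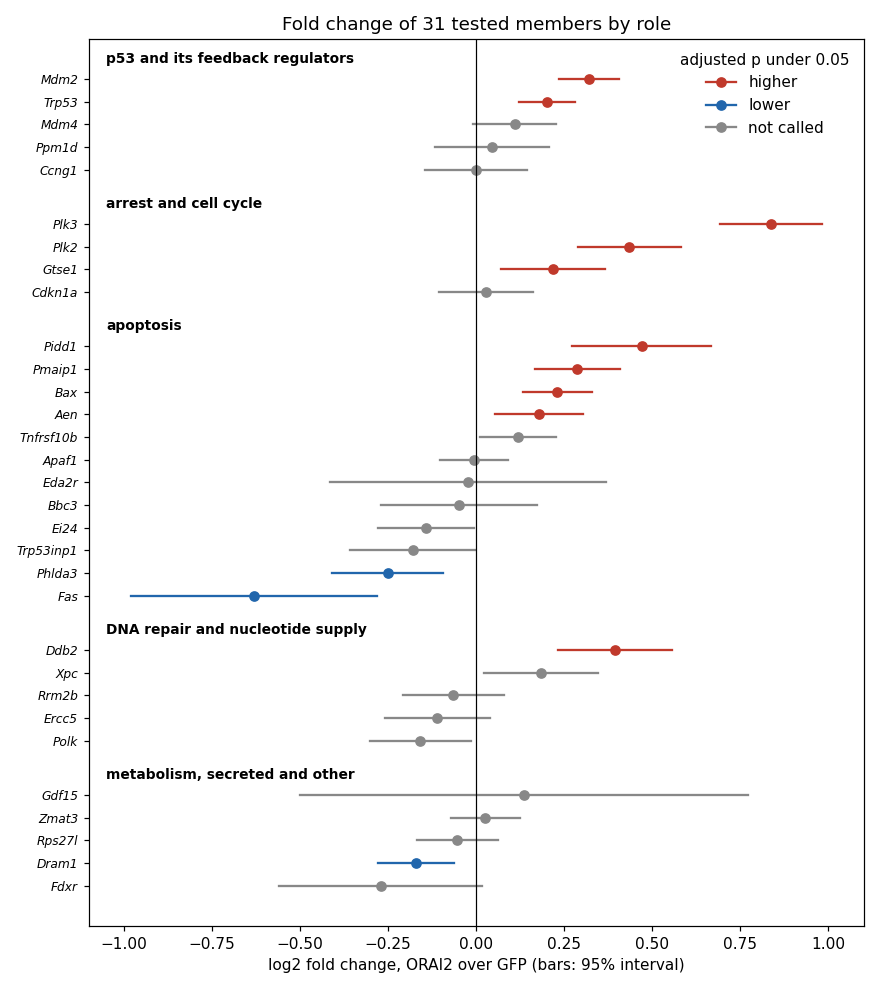
Log2 fold change, ORAI2 over GFP (horizontal axis), of the 31 tested members, grouped by role; points are edgeR estimates, bars 95% intervals, and colours the call at an adjusted p of 0.05. Plk3 is highest at 0.84 and Fas lowest at -0.63, and Cdkn1a and Ccng1 sit beside 0.

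Trp53 itself and Mdm2, its main inhibitor, were both higher when ORAI2 was supplied. Trp53 was at 213, 200.4 and 205 CPM in the ORAI2 libraries, against 181, 181 and 175 CPM in the GFP libraries. No GFP library reached the lowest ORAI2 library, a rise of 1.15-fold (0.20 on the log2 scale with SE 0.04, adjusted p = 7.06e-04 by edgeR). Mdm2, a ubiquitin ligase that is both a target and the inhibitor of p53, was at 185, 191 and 181 CPM in the ORAI2 libraries, against 144, 156 and 146 CPM in the GFP libraries. It rose 1.25-fold (0.32 on the log2 scale with SE 0.04, adjusted p = 3.80e-05), again without overlap between the groups.

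The other 3 regulators of this group did not pass the test. Mdm4, a relative of MDM2 that blocks p53 from activating transcription, averaged 202 ± 3.29 CPM in the ORAI2 libraries and 187 ± 17.1 CPM in the GFP libraries (SD, n = 3 each; adjusted p = 0.124). Its GFP libraries were spread from 169 to 203 CPM, and without GFP replicate 3 it passed (adjusted p = 0.0110). Ppm1d, the phosphatase WIP1 that switches off the damage response, averaged 18.1 ± 1.204 CPM in the ORAI2 libraries and 17.5 ± 0.455 CPM in the GFP libraries (adjusted p = 0.651). Ccng1, the cyclin G1 gene, whose product directs a phosphatase to MDM2, averaged 111 ± 10.3 CPM in the ORAI2 libraries and 111 ± 8.93 CPM in the GFP libraries (log2 fold change 0.00, 95% interval -0.15 to 0.14, adjusted p = 0.996). The gene thus carried the response element printed above and showed no detectable difference at this depth.

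Among the arrest and cell cycle genes Plk3 gave the largest rise of all members, while Cdkn1a was not called. Cdkn1a encodes p21, the inhibitor of cyclin-dependent kinases through which p53 halts the cycle. It was at 129, 155 and 135 CPM in the ORAI2 libraries, against 131, 146 and 133 CPM in the GFP libraries. The groups overlapped, and the log2 fold change was 0.03 with a 95% interval of -0.11 to 0.16 (adjusted p = 0.754, edgeR). It too carries a response element, printed above, next to its upstream annotated start, while the window of its downstream start held no match.

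Plk3, a stress-activated polo-like kinase, was at 51.4, 43.8 and 47.6 CPM in the ORAI2 libraries, against 25.8, 28.3 and 25.8 CPM in the GFP libraries. Every ORAI2 library stood well above every GFP library, and the rise was 1.79-fold (0.84 on the log2 scale with SE 0.07, adjusted p = 9.19e-07). Its relative Plk2, also known as a serum-induced kinase, was at 438, 459 and 395 CPM in the ORAI2 libraries, against 331, 342 and 283 CPM in the GFP libraries. It rose 1.35-fold with no overlap (0.43 on the log2 scale with SE 0.07, adjusted p = 2.29e-04). Gtse1, a microtubule-bound protein of the G2 and S phases that moves p53 out of the nucleus, was at 46.4, 43.8 and 38.2 CPM in the ORAI2 libraries, against 35.4, 38.05 and 37.0 CPM in the GFP libraries. The lowest ORAI2 library lay only just above the highest GFP library. Gtse1 rose 1.16-fold (adjusted p = 0.0209), and it alone of the 4 genes with a printed element passed the test. That call was lost without ORAI2 replicate 1, ORAI2 replicate 2 or GFP replicate 1 (adjusted p = 0.0960, 0.0626 and 0.0752).

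**Figure D2:**
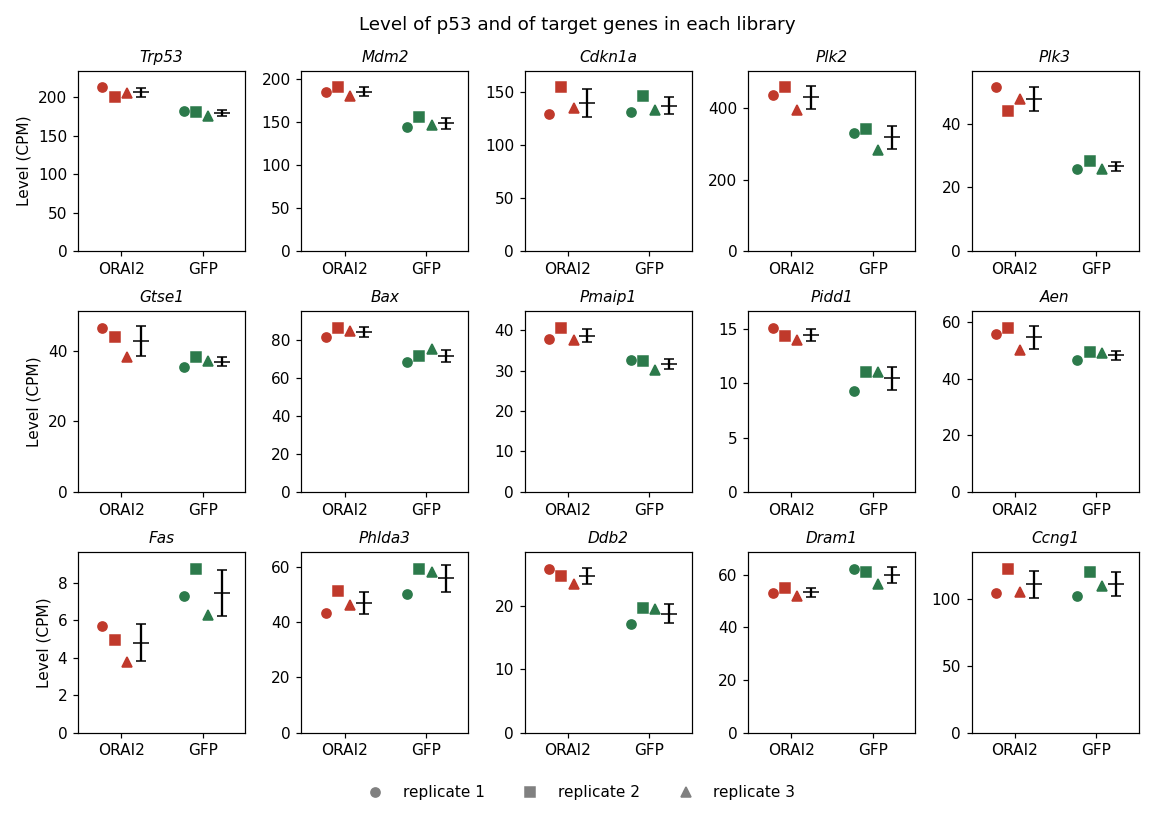
Level in CPM (vertical axis, from 0) of p53 and selected members in each library, ORAI2 left and GFP right; symbols mark the replicate number, and the black bar beside them gives the mean and SD of 3 libraries. Plk3 separates most, at 43.8 to 51.4 CPM in the ORAI2 libraries and 25.8 to 28.3 CPM in the GFP libraries, whereas Cdkn1a and Ccng1 overlap.

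The apoptosis genes moved both ways. Of 12 tested, 4 rose, 2 fell and 6 did not pass, with a median log2 fold change of -0.01. Those that rose act inside the cell, but so do Phlda3, which fell, and Apaf1, which did not pass. Bax, the pore-forming protein of the mitochondrial outer membrane, was at 81.5, 86.5 and 84.6 CPM in the ORAI2 libraries, against 68.6, 71.6 and 75.1 CPM in the GFP libraries (1.17-fold, 0.23 on the log2 scale with SE 0.04, adjusted p = 0.00119 by edgeR). A same-strand gene model shares 22.1% of the exonic bases of Bax in GENCODE, so part of its reads may belong there. Pmaip1, which encodes the BH3-only protein NOXA, was at 37.9, 40.6 and 37.5 CPM in the ORAI2 libraries, against 32.5, 32.3 and 30.2 CPM in the GFP libraries. It rose 1.22-fold (adjusted p = 0.00117), with no overlap between the groups.

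Pidd1, a death-domain scaffold that activates caspase-2, was at 15.1, 14.3 and 13.95 CPM in the ORAI2 libraries, against 9.23, 11.02 and 11.03 CPM in the GFP libraries. It rose 1.39-fold, the largest rise of this group (0.47 on the log2 scale with SE 0.09, adjusted p = 0.00119). Aen, an apoptosis-enhancing nuclease, was at 55.8, 57.9 and 50.1 CPM in the ORAI2 libraries, against 46.4, 49.3 and 48.9 CPM in the GFP libraries. ORAI2 replicate 3 came close to the GFP libraries, and the 1.13-fold rise (adjusted p = 0.0237) was lost without ORAI2 replicate 1, ORAI2 replicate 2 or GFP replicate 1 (adjusted p = 0.0729, 0.0957 and 0.0892).

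Fas, the death receptor of the cell surface, fell most of all members. It was at 5.71, 4.96 and 3.79 CPM in the ORAI2 libraries, against 7.30, 8.78 and 6.32 CPM in the GFP libraries. The counts behind these levels were 106, 93 and 70 in the ORAI2 libraries and 136, 164 and 118 in the GFP libraries, so its fold change was less precise than those above. Fas was 1.55-fold lower without overlap (-0.63 on the log2 scale with SE 0.16, adjusted p = 0.00690). Phlda3, which competes with AKT for membrane lipids and so restrains it, was at 43.3, 51.3 and 46.0 CPM in the ORAI2 libraries, against 50.2, 59.2 and 57.9 CPM in the GFP libraries. It fell by 0.25 on the log2 scale (adjusted p = 0.0132) although the groups overlapped, and the call was lost without ORAI2 replicate 1, ORAI2 replicate 3 or GFP replicate 2 (adjusted p = 0.0730, 0.0503 and 0.0633).

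Bbc3, which encodes PUMA, the BH3-only protein on which p53-driven death depends in many mouse cells, averaged 13.7 ± 1.54 CPM in the ORAI2 libraries and 14.1 ± 1.43 CPM in the GFP libraries (SD, n = 3 each; adjusted p = 0.735). Its 95% interval ran from -0.27 to 0.17 on the log2 scale. Apaf1, the scaffold of the apoptosome, averaged 72.2 ± 0.774 CPM in the ORAI2 libraries and 72.6 ± 3.57 CPM in the GFP libraries (adjusted p = 0.923). The death receptor Tnfrsf10b averaged 75.1 ± 4.65 CPM in the ORAI2 libraries and 69.2 ± 1.85 CPM in the GFP libraries, and missed the threshold at an adjusted p of 0.0692, though not without ORAI2 replicate 3 (adjusted p = 0.0284). Eda2r, a receptor for ectodysplasin A2, had between 86 and 136 counts in a library and a 95% interval from -0.41 to 0.37 (adjusted p = 0.935). Ei24, an endoplasmic reticulum protein, and Trp53inp1, a regulator of autophagy and cell death, had log2 fold changes of -0.14 and -0.18 (adjusted p = 0.0848 and 0.0961). Both passed without ORAI2 replicate 2 (adjusted p = 0.0226 for Ei24 and 0.0104 for Trp53inp1).

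In DNA repair and nucleotide supply, 1 of 5 genes rose and 4 did not pass; the median log2 fold change was -0.06. The gene that rose was Ddb2, the damage sensor of nucleotide excision repair that binds ultraviolet lesions. It was at 25.9, 24.8 and 23.5 CPM in the ORAI2 libraries, against 17.1, 19.7 and 19.6 CPM in the GFP libraries (1.31-fold, 0.39 on the log2 scale with SE 0.08, adjusted p = 0.00101 by edgeR). The groups did not overlap. Ddb2 shares 26.7% of its exonic bases in GENCODE with Acp2 on the opposite strand, and the sources used here do not state any use of strand in the counting. Acp2 itself fell by 0.20 on the log2 scale (adjusted p = 0.00161).

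Xpc, which recognises distorted DNA in the same repair pathway, averaged 17.0 ± 0.627 CPM in the ORAI2 libraries and 14.9 ± 0.626 CPM in the GFP libraries, a difference that did not pass (log2 fold change 0.18, adjusted p = 0.0657) although the groups did not overlap. Ercc5, the nuclease XPG, and Polk, a polymerase that copies past lesions, had log2 fold changes of -0.11 and -0.16 (adjusted p = 0.216 and 0.0710). Without GFP replicate 3 Polk passed (adjusted p = 0.0191). Rrm2b, the p53-induced subunit of ribonucleotide reductase, averaged 38.0 ± 2.26 CPM in the ORAI2 libraries and 39.8 ± 3.10 CPM in the GFP libraries (adjusted p = 0.460).

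Of the 5 remaining members 1 fell and 4 did not pass. Dram1, a lysosomal membrane protein that promotes autophagy, was at 53.05, 55.1 and 51.9 CPM in the ORAI2 libraries, against 62.4, 61.1 and 56.6 CPM in the GFP libraries. It fell by 0.17 on the log2 scale without overlap (adjusted p = 0.0143), a call lost without ORAI2 replicate 3, GFP replicate 1 or GFP replicate 2 (adjusted p = 0.0594, 0.0615 and 0.0547). Zmat3, an RNA-binding regulator of splicing, averaged 64.1 ± 2.31 CPM in the ORAI2 libraries and 63.0 ± 2.09 CPM in the GFP libraries (adjusted p = 0.673). Rps27l, a ribosomal protein paralogue and the last of the 4 genes with a printed element, averaged 63.6 ± 3.37 CPM in the ORAI2 libraries and 66.0 ± 3.69 CPM in the GFP libraries (adjusted p = 0.452). Whether reads of its paralogue Rps27 were counted to it was not tested. Fdxr, the mitochondrial ferredoxin reductase, stood at -0.27 on the log2 scale (adjusted p = 0.120, and 0.0305 without GFP replicate 1). Gdf15, a secreted stress signal, had only 12 to 23 counts in a library, and its 95% interval from -0.50 to 0.77 on the log2 scale leaves its direction undetermined at this depth.

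Within each group many members rose and fell with the library. Replicate 2 was the highest ORAI2 library for 19 of the 31 tested members and the highest GFP library for 16. Over all genes tested these shares were 33.7% and 28.7%. For 11 members (35.5%) it was the highest in both groups, against 11.5% of all genes tested. The same held for 2 members each with replicate 1 and with replicate 3. Whether the groups go together gene by gene, beyond the count in each group, was not tested. The 11 were Mdm2, Ccng1, Cdkn1a, Plk2, Bbc3, Tnfrsf10b, Eda2r, Aen, Trp53inp1, Phlda3 and Rrm2b. They include members that rose, fell and did not pass between the groups. Eda2r, for example, was at 7.26 CPM in ORAI2 replicate 2 against 4.85 and 4.65 CPM in the other ORAI2 libraries, and 6.48 CPM in GFP replicate 2 against 5.96 and 4.60 CPM in the other GFP libraries. Trp53 itself was highest in replicate 1 of both groups, though GFP replicates 1 and 2 were nearly equal at 181.5 and 181.2 CPM. These counts were chosen after the values were seen, and nothing in the labels states what same-numbered libraries share.

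**Figure D3:**
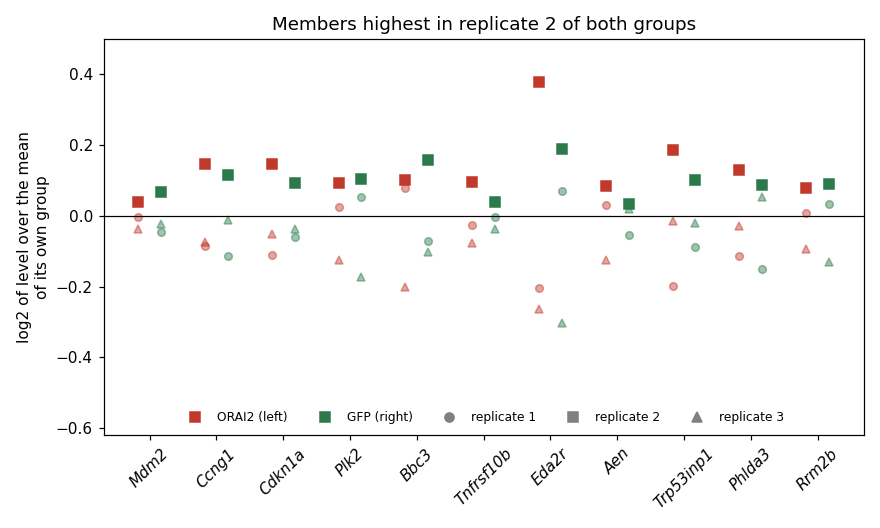
Level of the 11 members that were highest in replicate 2 of both groups, as log2 of the level over the mean of its own group (vertical axis); squares are replicate 2, ORAI2 left and GFP right of each name. Eda2r has the widest spread. Both squares lie above 0 for every gene because the genes were selected as highest in replicate 2.

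Among the regulators upstream of p53, Cdkn2a fell. This list and those below were chosen with earlier results of these data known. Of 16 tested, 3 rose, 2 fell and 11 did not pass, so that 31.2% were called beside 42.9% of all genes, and the median log2 fold change was -0.02. Cdkn2a, the source of both ARF and the kinase inhibitor p16, was at 144, 149 and 144 CPM in the ORAI2 libraries, against 257, 248 and 215 CPM in the GFP libraries. It was 1.65-fold lower with no overlap (-0.72 on the log2 scale with SE 0.06, adjusted p = 7.07e-07 by edgeR). The counts per gene do not separate its products. Of the kinases that signal DNA damage to p53, Atr rose 1.18-fold, to 86.0 ± 1.96 CPM in the ORAI2 libraries, against 72.9 ± 1.87 CPM in the GFP libraries (adjusted p = 4.19e-04). Atm was 1.13-fold lower, at 175 ± 5.34 CPM in the ORAI2 libraries and 198 ± 4.06 CPM in the GFP libraries (adjusted p = 0.00142). The acetyltransferase gene Kat5 and the deubiquitinase gene Usp7, Usp7 being named after its values were seen, had log2 fold changes of 0.16 and 0.11 (adjusted p = 0.0114 and 0.0210). Of the p53 family, Trp63 was scarce at 7, 10 and 18 counts in the ORAI2 libraries against 84, 64 and 58 counts in the GFP libraries, and was lower (log2 fold change -2.54, adjusted p = 1.92e-05). Trp73 had at most 14 counts and was not tested.

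Further genes known to be induced by p53, listed apart from the members, were lower more often than higher. As earlier results were known when they were listed, their shares beside all genes are descriptive only. Of 27 tested, 3 rose (11.1%), 13 fell (48.1%) and 11 did not pass, beside 20.8% higher and 22.1% lower over all genes, with a median log2 fold change of -0.12. Pml, a nuclear body protein that is also induced by interferon, was 1.74-fold lower, at 146 ± 6.38 CPM in the ORAI2 libraries and 253 ± 2.41 CPM in the GFP libraries (adjusted p = 1.64e-08). Tap1, the peptide transporter of antigen presentation and likewise an interferon-induced gene, was 2.13-fold lower, and Ephx1, a detoxifying epoxide hydrolase, 1.48-fold lower (adjusted p = 7.08e-07 and 1.75e-06). Epha2, an ephrin receptor, rose 1.46-fold, to 312 ± 8.81 CPM in the ORAI2 libraries, against 213 ± 10.7 CPM in the GFP libraries (adjusted p = 6.18e-07). Btg2, an antiproliferative gene, and Trp53cor1, the long noncoding RNA transcribed beside Cdkn1a, were named after their values were seen. Btg2 fell by 0.47 and Trp53cor1 by 0.35 on the log2 scale (adjusted p = 1.83e-04 and 0.0229).

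Cell cycle genes that p53 is known to repress through p21 and the DREAM complex mostly rose. They too were listed with earlier results known, so their share beside all genes is descriptive only. Of 20 tested, 15 rose (75%) and 5 did not pass, beside 20.8% higher over all genes, with a median log2 fold change of 0.27; 0 fell by edgeR, DESeq2 or limma-voom, also at an unadjusted p of 0.05. Cdc20, the activator of the anaphase-promoting complex, was at 120.1, 118 and 109.8 CPM in the ORAI2 libraries, against 83.4, 89.5 and 84.8 CPM in the GFP libraries (1.35-fold, adjusted p = 8.08e-06). Plk1, the mitotic polo-like kinase, rose 1.36-fold, and the mitotic kinesin gene Kif20a 1.2-fold (adjusted p = 1.52e-04 and 1.38e-04). Foxm1, a transcription factor of the G2 phase, rose 1.19-fold, to 153 ± 6.59 CPM in the ORAI2 libraries, against 129 ± 1.93 CPM in the GFP libraries (adjusted p = 2.48e-04). Gtse1, a member described above, had a log2 fold change of 0.22, within the range of this list.

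**Figure D4:**
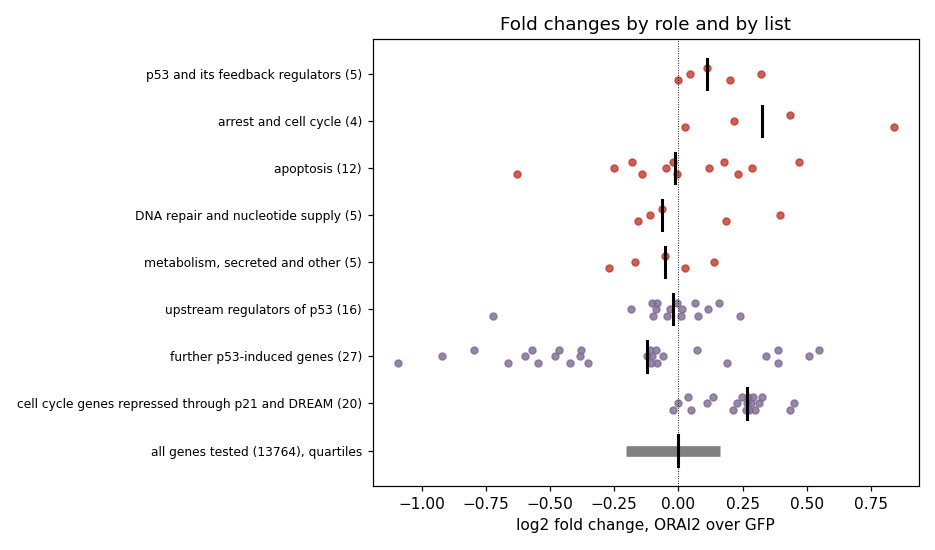
Log2 fold change, ORAI2 over GFP (horizontal axis), of each tested gene by role of the members (red) and in 3 lists of related genes (purple), with the number tested in brackets; black bars are medians, and the grey bar spans the range between the quartiles of all genes, from -0.20 to 0.16. The cell cycle list has its median at 0.27, the further p53-induced genes at -0.12.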

How the data were processed

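Messenger RNA purified on oligo(dT) beads was sequenced, per the labels' protocols. HISAT2 2.0.4, Salmon 1.4.0 and build GRCm39 are listed in the submitters' processing notes, without roles. The authors deposited, per the file headers, counts (whole numbers) and TPM values per gene and library; the sources used here do not say if the counts are rounded estimates. The TPM columns did not track the counts of the same name and entered no main result. Entrez numbers were matched to RefSeq symbols of GRCm38.p6 (25631 of 26532).

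Counts were tested with edgeR 4.0.16 in R 4.3.3 (quasi-likelihood F-test, TMM, filterByExpr with a minimum count of 10, Benjamini-Hochberg over 13764 genes, adjusted p under 0.05). Levels are CPM after TMM scaling, and marker sums CPM of the library total. Errors of levels are SD; SE and 95% intervals of log2 fold changes derive from the F statistic. Over pairs of libraries of 1 group the chi-square per gene was 2.54 to 4.5 (summed count of 20 or more), above sampling noise. The test was tried on simulated data, where the share of false calls lay above the nominal level and small changes were often missed. Alternatives used DESeq2 1.42.0, limma 3.58.1 (voom), other scalings and filters, a robust fit, a replicate block, and each library left out. Promoter windows and exon overlaps (GENCODE M21, GRCm38) came from reference tables.

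All 32 members are named, with every library's value for those called and for Cdkn1a; from each list of related genes, up to 4 called genes of smallest p, beside those said to be named after their values were seen. The members, roles and lists were chosen with earlier results of these data known.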

Additional observations from a re-analysis of the deposited data

Results flagged for a closer look

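The TPM columns, which no comparison above uses, also held a signal for the delivered gene. Orai2 was at 1429.5, 1241.34 and 36.33 TPM in the columns named ORAI2, and the GFP columns held 24.83, 24.86 and 38.19 TPM, so the column named ORAI2-3 does not carry the excess that its label states. The TPM columns numbered 1 tracked best the counts numbered 2, and those numbered 2 the counts numbered 3, over 10036 genes. Of the columns numbered 3, that named GFP tracked best the counts of GFP replicate 1 (correlation 0.46). That named ORAI2 tracked no ORAI2 library well, with correlations of 0.18, -0.06 and 0.08 to the counts of replicates 1, 2 and 3. The 3 columns named ORAI2 all lay above the 3 named GFP for 6 of the 31 tested members (19.4%) and for 7.96% of all 13764 genes tested; limma on these columns called 0 members higher and 0 lower, and 5 and 0 at an unadjusted p of 0.05. The 6 are among the 10 members called higher in the counts; of all genes called higher there, 28.8% lay so. Their lowest value in the columns named ORAI2 was 238.17 TPM for Trp53, 114.72 TPM for Mdm2, 278.84 TPM for Plk2, 42.8 TPM for Plk3, 28.64 TPM for Pmaip1 and 27.25 TPM for Ddb2. The highest value in the columns named GFP was 219.05, 99.61, 248.39, 27.46, 24.91 and 22.08 TPM for the same genes in that order. As the column named ORAI2-3 lacks the Orai2 excess, the shares over the TPM columns are no clean comparison of ORAI2 with GFP. The TPM values are no independent replicate of the counts.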

How the results depend on the processing

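All 13 called members kept their call and direction under the 9 alternative fits to the counts of all 6 libraries. With each of the 6 libraries left out, 9 of the 13 kept it each time (Trp53, Mdm2, Plk2, Plk3, Bax, Pmaip1, Pidd1, Fas and Ddb2); Gtse1, Aen, Phlda3 and Dram1 did not. Across these 6 fits 8 to 11 members were higher and 1 to 5 lower, with 1 lower without ORAI2 replicate 3 or GFP replicate 2 and 5 without ORAI2 replicate 2, and 4943 to 5661 genes were called. With upper quartile scaling Polk was also lower (adjusted p = 0.0423). Added after the data were seen, limma on the TPM columns (pseudocount 0.5, mean of at least 1 TPM) called 0 members higher, 0 lower and 20 genes in all; the columns numbered 1 and 2 alone gave 3 members higher, 0 lower and 2158 genes. The cause was not tested. Same-numbered libraries of the 2 groups had correlated deviations of 0.14, 0.07 and 0.13, and each library correlated best with its own number, a hint from the data and not the design. With the replicate number as a block 11 members were higher, 4 lower and 6246 genes called, adding Tnfrsf10b and Trp53inp1 (adjusted p = 0.0351 and 0.0109). Depth limits Fas, Eda2r, Fdxr and Gdf15 most, and intervals of the fit cover the spread between these 3 libraries per group only.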
